A study of Homo sapiens with 6 samples.

Results

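The BEX (brain expressed X-linked) and TCEAL (transcription elongation factor A like) genes code for small, mostly unstructured proteins that are made from neighbouring genes on the long arm of the X chromosome. The 10 genes described here, of 19775 with a probe set of their own, are BEX1, BEX2, BEX3, BEX4, BEX5, TCEAL1, TCEAL3, TCEAL4, TCEAL8 and TCEAL9. They were picked by name because BEX1 was far higher in PARK2 arrays. Each was read by 1 probe set with a single gene symbol, and 8 of these 10 passed the filter on dim signal that 26603 probe sets passed. The values that led to the choice are those of the comparison of PARK2 with control cells, so the members' differences are given as a description, with no p-value. Where a member is said to be past the threshold of the fit over all probe sets, that too describes it and is no independent test.

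RNA came from U251 cells, a human glioma line. The PARK2 group was a stable line that overexpressed PARK2 (3 Affymetrix arrays), and the control group was a stable line that overexpressed GFP (3 arrays). Both lines had been infected with viral particles and selected with puromycin, so every sample carries a transgene and has been through selection, and the labels name neither the promoter of the transgene nor say whether a line is a single clone. Replicates are called biological in the labels, with no mention of separate infections or cultures, so the error behind each p-value is that among these arrays and could be technical alone. The level of PARK2 itself was not analysed here, and the group labels were taken as given.

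BEX proteins are best known as adaptors in signalling. BEX1 and BEX3 bind the p75 neurotrophin receptor, and BEX family proteins have been tied to cell cycle exit, cell death and neuronal differentiation. BEX1 and BEX2 have been described as silenced by promoter methylation in malignant glioma, where they were put forward as candidate tumour suppressors. TCEAL proteins share a conserved stretch with the BEX family and resemble part of the elongation factor TFIIS, and several of them have been described as modulators of transcription.

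Array medians ran from 16.2 to 19.3 intensity units in PARK2 arrays and from 16.7 to 18.4 in control arrays. Means trimmed by 2% at each end ran from 141 to 155 in PARK2 arrays and from 137 to 168 in control arrays, with control replicate 1 the brightest of the 6 and control replicate 3 the dimmest. Over all 26603 tested probe sets, limma with Benjamini-Hochberg adjustment at 0.05 put 20.4% past the threshold, 9.10% higher and 11.3% lower in PARK2 cells, so calls were common in this comparison. The glioma markers VIM, NES, SOX2 and CD44 were bright in both lines (means of 8921, 1306, 6322 and 7453 intensity units in PARK2 cells and 8898, 1426, 5151 and 7150.2 in control cells), GFAP read 319, 397 and 371 in PARK2 arrays, against 338, 207 and 208 in control arrays, and OLIG2 and AQP4 lay under the filter floor of 9.87.

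BEX1, the p75 receptor adaptor for which the set was chosen, was the member with the widest difference. Its probe set read 1581, 1379 and 1449 intensity units in PARK2 replicates 1 to 3, against 40.2, 42.9 and 61.5 in control replicates 1 to 3. The groups did not overlap, and the lowest PARK2 array stood 1317 units above the highest control array. The mean was 1469 ± 103 in PARK2 cells and 48.2 ± 11.6 in control cells (SD, n = 3 each), a ratio of 30.5. On the scale of log2(intensity + 16), where 16 is a pseudocount, the difference was 4.54 (SE 0.16, 95% confidence interval 4.20 to 4.89), and 6 of the other tested probe sets had a greater one. The pseudocount lowers differences of dim genes, and with 1 or 64 in its place the BEX1 difference was 4.92 or 3.78. In bulk RNA, more cells that express the gene and more RNA per cell cannot be told apart.

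BEX2, a close relative of BEX1 whose protein has been found with the LIM factor LMO2, was also higher in PARK2 cells, by less. It read 224, 195 and 259 intensity units in PARK2 replicates 1 to 3, against 88.4, 55.1 and 63.3 in control replicates 1 to 3. Every PARK2 array lay above every control array, with 106 units between the nearest pair. The mean was 226 ± 31.9 in PARK2 cells and 68.9 ± 17.3 in control cells (SD, n = 3 each), a ratio of 3.28, and the log2 difference was 1.52 (SE 0.18, 95% confidence interval 1.13 to 1.91). BEX1 and BEX2 transcripts are alike in sequence, and whether either probe set also reads the other transcript was not tested.

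The remaining BEX genes did not share this pattern. BEX3, the p75 receptor partner that has been linked to cell death, read 4373, 3442 and 3220.4 intensity units in PARK2 replicates 1 to 3, against 4209, 3316 and 3403 in control replicates 1 to 3. The groups overlapped, and replicate 1 was the highest array in both. The log2 difference of BEX3 was 0.0096 (SE 0.13, 95% confidence interval -0.27 to 0.29), and its probe set is marked _s_at, the maker's sign that its probes may match more than a single transcript. BEX4 read 0.87, 10.4 and 4.30 units in PARK2 arrays, against 11.9, 9.62 and 7.60 in control arrays. BEX5 read 11.7, 2.24 and 3.06 units in PARK2 arrays, against 11.8, 2.46 and 8.30 in control arrays. Both genes lay under the filter in the mean over the 6 arrays, so these readings are near the floor of the measurement and were not tested.

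Among the TCEAL genes, TCEAL9 had the widest difference. TCEAL9, also called WBP5 after the WW domains its protein was found to bind, read 4168, 4109 and 4448 intensity units in PARK2 replicates 1 to 3, against 3794, 2849 and 2550.3 in control replicates 1 to 3. The groups did not overlap, and the control arrays were spread more widely than the PARK2 arrays. The mean was 4242 ± 181 in PARK2 cells and 3064 ± 649 in control cells (SD, n = 3 each), a ratio of 1.38, and the log2 difference was 0.49 (SE 0.13, 95% confidence interval 0.21 to 0.77).

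TCEAL1, a nuclear protein that modulates promoter activity, read 1028, 977 and 967 intensity units in PARK2 arrays, against 889, 838 and 620.3 in control arrays. These groups did not overlap either, and the log2 difference was 0.35 (SE 0.15, 95% confidence interval 0.039 to 0.66). TCEAL8 read 666, 529 and 711 units in PARK2 arrays, against 711, 551 and 464 in control arrays, a log2 difference of 0.15 (SE 0.17). TCEAL8 overlapped between the lines, with PARK2 replicate 3 and control replicate 1 at about the same level.

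TCEAL4 read 2531, 2159.6 and 2539 units in PARK2 arrays, against 2823, 2241 and 1854 in control arrays, a log2 difference of 0.080 (SE 0.14). TCEAL3 read 1039.8, 1039 and 972 units in PARK2 arrays, against 1088, 1079.7 and 927 in control arrays, a log2 difference of -0.018 (SE 0.13). Both overlapped, and for each of them the control arrays held the highest and the lowest of the 6 values. In all 5 TCEAL genes control replicate 1 was the highest and control replicate 3 the lowest of the control arrays, the order that the trimmed means of those arrays also have.

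**Figure D1:**
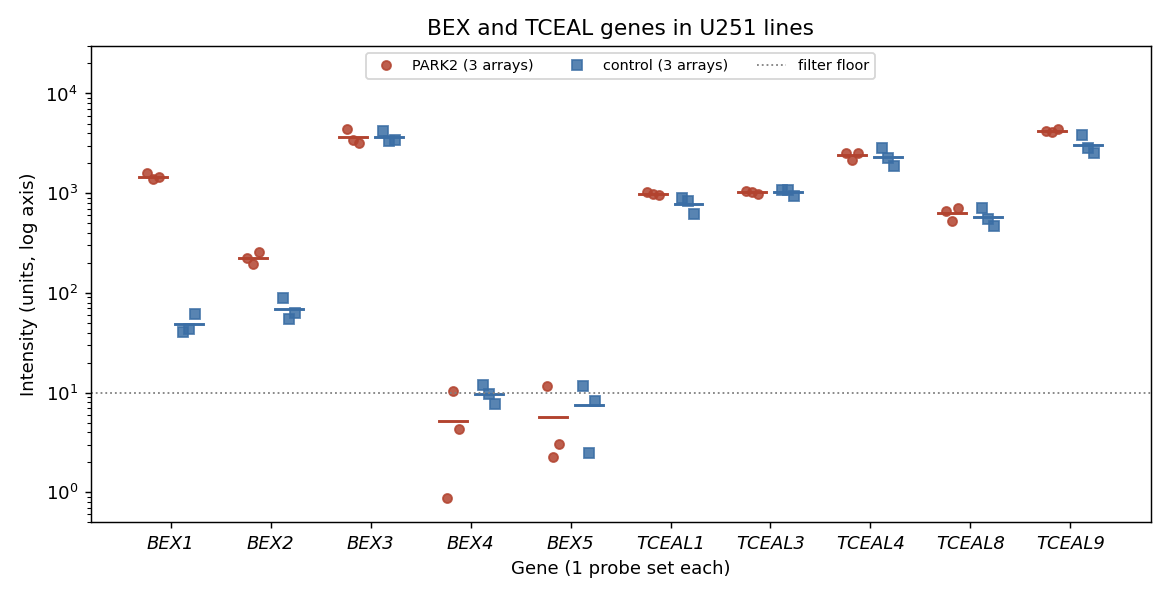
Intensity of the 10 BEX and TCEAL probe sets on each array (log axis, intensity units), PARK2 arrays as circles left of control arrays as squares, with a bar at each group's mean and a dotted line at the filter floor of 9.87. BEX1 lies between 1379 and 1581 in PARK2 arrays and between 40.2 and 61.5 in control arrays, BEX2 is also apart, and BEX4 and BEX5 lie near or under the floor.

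Of the 8 members that passed the filter, 3 (BEX1, BEX2 and TCEAL9) were past the limma threshold in the higher direction, where 9.10% of all tested probe sets were, and 0 in the lower direction, where 11.3% were (20.4% in either direction). For 4 of the 8 the groups did not overlap, with PARK2 cells higher each time, and 35.1% of all tested probe sets had no overlap in either direction. Since this same comparison chose the members, nothing is read from these counts. The median log2 difference of the 8 was 0.25, against -0.0060 over all tested probe sets. TCEAL9 was no longer past the threshold without PARK2 replicate 3, control replicate 2 or control replicate 3 (log2 differences of 0.45, 0.44 and 0.37), without the filter or without the intensity trend. TCEAL1 came past it without control replicate 1 (0.45), with array weights (0.26), and when the arrays were brought to a common quantile distribution (0.37) or a common trimmed mean (0.38).

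BEX1 and BEX2 kept their direction under every scaling tried. The BEX1 difference was 4.55 after quantile normalization, 4.53 after median centring and 4.56 after trimmed mean scaling. The BEX2 difference was 1.53, 1.51 and 1.55 in the same order. The sign of BEX3 (0.062, -0.0043 and 0.036) and of TCEAL3 (0.0036, -0.032 and 0.0088) turned between scalings.

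The BEX1 and BEX2 start regions are shown because these 2 members carried the widest differences and CpG sites in them are where promoter methylation would act. Sequences are from RefSeq on GRCh38.p14, where all 10 members were matched, and each is the 250 bases before the annotated start site, 5′ to 3′ on the gene's strand, with each CpG in capitals. The arrays do not measure methylation. The BEX1 stretch is chrX:103064172-103064421 on the minus strand and holds 19 CpG sites, and that of BEX2 is chrX:103310991-103311240 on the minus strand and holds 11.
BEX1: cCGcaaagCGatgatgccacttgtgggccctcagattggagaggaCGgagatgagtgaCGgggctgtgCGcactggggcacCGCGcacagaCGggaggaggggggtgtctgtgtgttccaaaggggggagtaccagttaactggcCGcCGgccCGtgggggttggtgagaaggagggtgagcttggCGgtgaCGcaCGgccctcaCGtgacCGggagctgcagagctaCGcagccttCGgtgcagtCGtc
BEX2: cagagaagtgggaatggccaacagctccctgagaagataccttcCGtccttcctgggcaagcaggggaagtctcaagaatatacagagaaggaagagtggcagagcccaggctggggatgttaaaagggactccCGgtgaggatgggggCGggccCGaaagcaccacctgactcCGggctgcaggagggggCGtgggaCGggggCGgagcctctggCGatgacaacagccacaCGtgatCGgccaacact

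In windows that also take in the first 50 bases of the transcript (300 bases in all), BEX1 held 25 CpG sites and BEX2 17, against a median of 14 (quartiles 3 and 28) over 27303 promoters. The other members held 7 (BEX3), 16 (BEX4), 14 (BEX5), 5 (TCEAL1), 30 (TCEAL3), 12 (TCEAL4), 14 (TCEAL8) and 10 (TCEAL9). TCEAL3, with a log2 difference of -0.018, held the most CpG sites of the 10, followed by BEX1 (4.54) and BEX2 (1.52). A relation between CpG number and the differences was not tested. Aligned end to end, the BEX2 window was most like that of BEX4, with 75.3% identical columns, and the pair shared an exact run of 45 bases. That run is shown because BEX2 was higher in PARK2 cells while BEX4 lay under the filter in both lines.
BEX2 and BEX4: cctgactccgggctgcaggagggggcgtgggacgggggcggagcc
BEX1 and BEX2 were 47.5% identical in the same kind of alignment. BEX1 and BEX3 shared a run of 35 bases, which starts 239 bases before the BEX1 start site and 33 bases before that of BEX3, so the annotated starts of these genes lie at different places relative to a common stretch. TCEAL8 and TCEAL9 shared a run of 31 bases.

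A palindromic E-box, CACGTG, stood near the start site of 6 of the 10 members, while 7.44% of the 27303 promoter windows held it on either strand. Some member windows are alike in sequence (BEX2 and BEX4 had 75.3% identical columns), so the members with an E-box are not independent cases. In these 6 (BEX1, BEX2, BEX4, TCEAL3, TCEAL4 and TCEAL8) it began 3 to 80 bases before the start site and was followed by A on the gene's strand. The longer form CACGTGA, chosen after the sequences were seen, was held by 3.82% of all windows on either strand. Of the 6 ARMCX and GPRASP windows analysed, 3 held the E-box (ARMCX1, ARMCX2 and ARMCX6), at 1 to 60 bases before the start site. Those of ARMCX4, ARMCX5 and GPRASP1 held none, and the window of GPRASP3 was not analysed. The surroundings are shown for the 9 genes with an E-box, 12 bases on each side, with the E-box in capitals.
BEX1: acgcacggccctCACGTGaccgggagctgc
BEX2: tgacaacagccaCACGTGatcggccaacac
BEX4: tgacaacagcccCACGTGaccggccaacac
TCEAL3: tgacgcggcgctCACGTGacccgccgggcg
TCEAL4: ggctgcggcattCACGTGatctgcacgggc
TCEAL8: tgacgcgactctCACGTGaccaggagtcga
ARMCX1: tgacgtggccctCACGTGagctggagccga
ARMCX2: cgatgcagccctCACGTGaccaggagctga
ARMCX6: tgacgtggccgtCACGTGaccaagagccgc

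Members with the E-box were found at both ends of the range of differences, from BEX1 at 4.54 to TCEAL3 at -0.018, and TCEAL9, which was higher, had none in its window. The other motifs searched on both strands were the GC box GGGCGG (7 of 10 members, 44.6% of all windows), the CCAAT box CCAAT (4 members, 35.7%) and the short cAMP response element TGACG (8 members, 25.0%). The TATA box TATAAA (12.0% of all windows), the full cAMP response element TGACGTCA (1.98%, which contains the short one), the AP-1 site TGANTCA (7.76%) and the ETS core CCGGAAG (10.7%) were found in 0 members. A match describes letters in this window and is not evidence of a binding site.

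**Figure D2:**
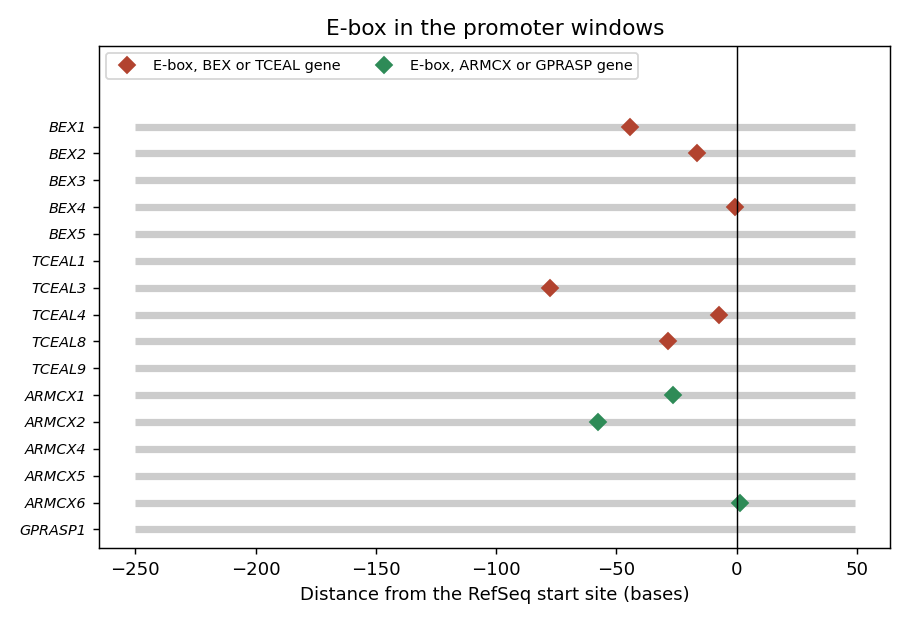
Position of the E-box in the 300-base promoter windows of 10 BEX and TCEAL genes and 6 ARMCX and GPRASP genes, as distance in bases from the RefSeq start site (vertical line). Diamonds mark an E-box, present in 6 BEX and TCEAL genes and 3 ARMCX and GPRASP genes, all of them within 80 bases of the start site.

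The ARMCX and GPRASP genes, which lie in the same stretch of the X chromosome and have been grouped with the BEX and TCEAL genes by their shared origin, were mostly higher in PARK2 cells. With 1 probe set per gene, the brightest, 6 of 8 tested genes rose and 0 fell, where 10.8% of 13720 genes were higher and 13.0% lower. This list, like the others, was chosen with earlier results of these data known, so the count is a description and no independent test. At an unadjusted p of 0.05, likewise 0 fell. The median log2 difference of the 8 was 0.73. ARMCX2 read 416, 306 and 375 intensity units in PARK2 arrays, against 39.5, 25.8 and 22.0 in control arrays. Its log2 difference was 3.09 (SE 0.19, limma's adjusted p 1.8e-09), the widest of the family, and the groups were far apart.

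ARMCX1, which codes for a mitochondrial outer membrane protein that promotes mitochondrial transport in axons, read 423, 381 and 384 units in PARK2 arrays, against 92.6, 100.5 and 88.8 in control arrays (log2 difference 1.91, SE 0.15, limma's adjusted p 7.7e-08). ARMCX4 averaged 78.6 ± 2.60 in PARK2 cells and 23.9 ± 2.05 in control cells (SD, n = 3 each; log2 difference 1.25, limma's adjusted p 6.0e-05). A dimmer probe set of ARMCX4 was at -0.035 (adjusted p 0.941), so its probe sets differ. GPRASP3 averaged 158 ± 23.6 in PARK2 cells and 85.2 ± 16.6 in control cells (log2 difference 0.79, limma's adjusted p 0.0039). Named here after their values were seen, ARMCX6 (0.68, adjusted p 0.0039) and ARMCX3 (0.63, adjusted p 0.0079, and 0.60 on another probe set) also rose. ARMCX3 was no longer past the threshold without PARK2 replicate 3. ARMCX5 was at -0.097 (adjusted p 0.748) and GPRASP1, which sorts receptors to lysosomes, at 0.33 (adjusted p 0.332). TCEAL2 and TCEAL7, the other TCEAL genes with a probe set of their own, lay under the filter in both lines (means of 8.75 and 2.89 in PARK2 cells and 9.55 and 3.19 in control cells).

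**Figure D3:**
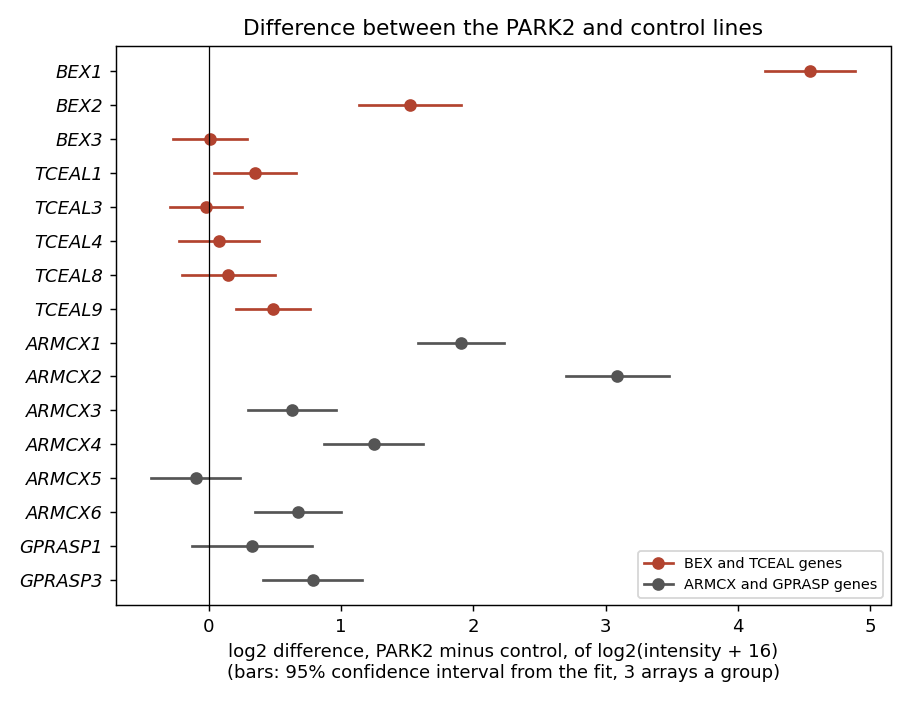
Difference between PARK2 and control cells in log2(intensity + 16) for the 8 BEX and TCEAL genes and 8 ARMCX and GPRASP genes that passed the filter, with 95% confidence intervals (3 arrays a group). BEX1 lies at 4.54, ARMCX2 at 3.09, ARMCX1 at 1.91 and BEX2 at 1.52, while BEX3, TCEAL3, TCEAL4, TCEAL8, ARMCX5 and GPRASP1 have intervals that take in 0.

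Other genes of the region mostly stayed under the threshold, as did most genes of the whole comparison. Besides the genes above, 38 genes with a probe set lie between BEX5 and TCEAL1, the outermost members in RefSeq order, or among the 20 measured genes on either side. Of these, 19 passed the filter, and 1 rose and 0 fell by limma, where 10.8% of all genes were higher and 13.0% lower. At limma's unadjusted p of 0.05, 3 were higher, and the median log2 difference was 0.18. The gene that rose was RADX, whose protein binds single-stranded DNA at replication forks, at 98.4 ± 15.4 intensity units in PARK2 cells and 1.26 ± 0.60 in control cells (log2 difference 2.72, SE 0.20, limma's adjusted p 1.8e-08). Its control level lies under the filter floor, so RADX passed the filter through its PARK2 arrays alone. The call is therefore no independent test, and the size of this difference depends on the pseudocount. With the filter at the 60th percentile, 11 of the neighbours were tested and 0 were higher. Named for their place, the measured genes on either side of BEX1, RAB40AL and NXF3, lay under the filter, with means of 2.36 and 3.06 in PARK2 cells and 4.94 and 2.31 in control cells. MORF4L2, next to TCEAL1 and likewise named for its place, was at 0.18. In the fit without the filter 38 were tested, of which 2 were higher and 0 lower. Of the genes under the filter, the groups did not overlap for ZMAT1, ESX1 and TMSB15B-AS1, named after their values were seen. ZMAT1 averaged 16.7 in PARK2 cells and 2.07 in control cells, and ESX1 10.6 and 2.55. TMSB15B-AS1 went the other way, with 5.18 and 15.8.

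**Figure D4:**
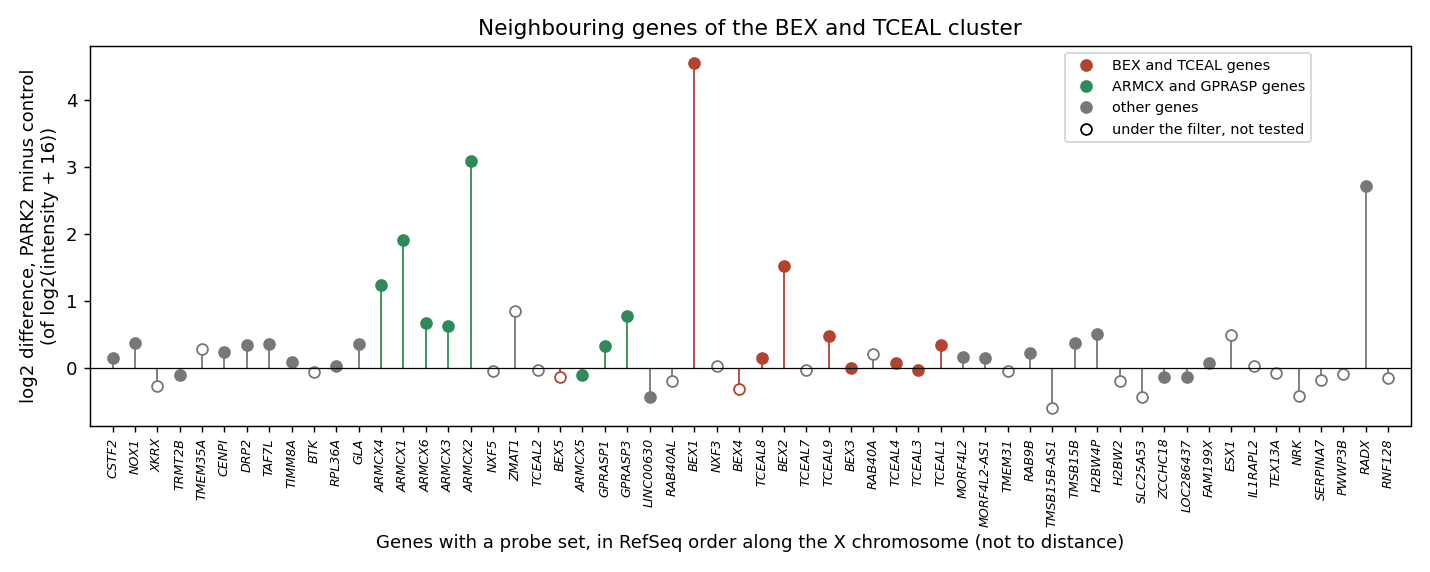
Difference between PARK2 and control cells in log2(intensity + 16) for the 58 genes with a probe set in this part of the X chromosome, in RefSeq order and not to distance, with open circles for genes under the filter. BEX1 (4.54) and BEX2 (1.52) stand above the other members, ARMCX4, ARMCX1, ARMCX6, ARMCX3 and ARMCX2 lie side by side above 0, and RADX (2.72) is apart from both.

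Of 20 genes of the p75 neurotrophin receptor pathway, 15 had a probe set of their own and 13 were tested, of which 1 rose and 4 fell, where 10.8% of all genes were higher and 13.0% lower. NGFR, the p75 receptor itself, read 1.02, 0.89 and 11.3 intensity units in PARK2 arrays, against 2.003, 5.55 and 3.76 in control arrays, near the floor of the measurement in both lines. BDNF, a neurotrophin, averaged 318 ± 29.2 in PARK2 cells and 45.7 ± 9.02 in control cells (SD, n = 3 each; log2 difference 2.44, SE 0.17, limma's adjusted p 1.3e-08). A dimmer BDNF probe set was at 1.93.

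RIPK2, a kinase recruited to the receptor, averaged 240.4 ± 67.9 in PARK2 cells and 479 ± 33.5 in control cells (log2 difference -0.98, limma's adjusted p 0.00088). MAGED1, another protein that binds the receptor, averaged 1454 ± 57.2 in PARK2 cells and 2390.4 ± 389 in control cells (-0.70, adjusted p 0.00087). NTRK3, the receptor for neurotrophin 3, fell on its brightest probe set (-0.58, adjusted p 0.0400) and rose on another of its 9 tested probe sets (0.76, adjusted p 0.0141), so it has no settled direction. RHOA, a GTPase named after its values were seen, fell by 0.33. The calls of NTRK3 and RHOA were lost in 4 of the 6 fits that left out 1 array (NTRK3 without replicate 1 or 2 of either line, RHOA without any PARK2 array or control replicate 2). Of 9 reported protein partners of the BEX family, 6 had a probe set of their own and 4 were tested, and 0 passed limma's threshold or an unadjusted p of 0.05. The 2 with the smallest p were LDB1 (-0.29, adjusted p 0.338) and YWHAE (-0.13, adjusted p 0.555).

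Of 30 genes of transcription elongation, the process for which the TCEAL genes are named, 27 were tested, of which 1 rose and 4 fell, where 10.8% of all genes were higher and 13.0% lower, with a median log2 difference of 0.084. TCEA1, which codes for TFIIS itself, averaged 2588 ± 287 in PARK2 cells and 4194 ± 76.8 in control cells (SD, n = 3 each; log2 difference -0.70, SE 0.11, limma's adjusted p 0.00025). A dimmer TCEA1 probe set was at 0.036 (adjusted p 0.947), and the call was lost with the mean of the gene's probe sets. The PAF1 complex genes RTF1 (-0.55, adjusted p 0.0063) and LEO1 (-0.55, adjusted p 0.0188) fell, with LEO1 no longer past the threshold without PARK2 replicate 1 or 2. CDC73, of the same complex and named after its values were seen, passed on its brightest probe set (-0.42, adjusted p 0.0454), while its other tested probe sets were at 0.25 (adjusted p 0.304) and -0.10 (adjusted p 0.743). With the replicate block its adjusted p was 0.0743. AFF4, a scaffold of the super elongation complex, passed on its brightest probe set (0.45, adjusted p 0.0277). In all, 2 of its 7 tested probe sets passed, and the 7 ran from -0.059 to 0.60. The calls of CDC73 and AFF4 were each lost in 5 of the 6 fits that left out 1 array, all but the fit without control replicate 1. Some genes not called on their brightest probe set passed limma's threshold on a dimmer one. Higher were CCNT2 (0.74, adjusted p 0.0027, and 0.63, adjusted p 0.0417) and ELOB (0.62, adjusted p 0.0316). Lower were ELOC (-0.77, adjusted p 0.00046) and TCEA2 (-0.87, adjusted p 0.0233). The counts above leave these out.

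Markers of other cell types were read beside these results because BEX genes are strongly expressed in neurons. Of 15 neuronal markers 7 were tested, of which 4 rose and 1 fell, where 10.8% of all genes were higher and 13.0% lower. The summed intensity of all 15 ran from 9241 to 9727 in PARK2 arrays and from 5303 to 6251 in control arrays. This gap was carried by NEFL and TUBB3, whose means were 2891 and 1503 units higher in PARK2 cells. The tested TUBB3 probe sets are marked _x_at and may read other genes. Without probe sets marked _x_at or _s_at, 5 neuronal markers were tested, of which 2 rose and 1 fell. MAP2 (-0.10 and -0.26 on its probe sets) and ENO2 (-0.46) did not pass limma's threshold. NEFL averaged 2982 ± 84.1 in PARK2 cells and 91.3 ± 22.7 in control cells, SYT1 152 ± 12.5 and 13.7 ± 3.90, and SNAP25 58.7 ± 18.7 and 14.6 ± 1.21 (SD, n = 3 each). A dimmer SNAP25 probe set was at 0.54 (adjusted p 0.0605). GAP43 fell to 42.2 ± 5.78 in PARK2 cells, against 673 ± 109 in control cells. NEFM, NEFH, INA, STMN2, SYP, RBFOX3, ELAVL4 and DCX were under the filter in the mean over the 6 arrays. These 8 neuronal markers were not tested, and their level in each line is not given here.

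Of all 13720 genes, 10.8% were higher and 13.0% lower, the shares to set beside each count of markers here. Of 12 markers of astrocytic glioma, 10 were tested, of which PTPRZ1 (-1.57), S100B (-1.39) and SLC1A3 (-0.72) fell. GFAP passed limma's threshold on its brightest probe set (0.53, adjusted p 0.0485), while its other tested probe set was at -0.59 (adjusted p 0.219), so it has no settled direction. The GFAP call was lost in 4 of the 6 fits that left out 1 array (without replicate 2 or 3 of either line). Of 7 fibroblast markers 5 were tested, of which COL1A2 rose (0.56) and THY1 (-0.80) and PDGFRA (-0.67) fell. Of 5 epithelial markers 2 were tested, of which KRT18 fell (-1.12) and KRT8 was at -0.023 (limma's adjusted p 0.959). Both were read by probe sets marked _x_at, which may read other genes. EPCAM, CDH1 and KRT19 were under the filter. Of 4 endothelial and 4 myeloid markers 2 and 1 were tested, and 0 passed limma's threshold or an unadjusted p of 0.05 (KDR 0.075, PECAM1 -0.038 and ITGAM -0.23). In the fit without the filter, which also takes in markers near the floor, 1 of the 4 myeloid markers was higher. The part of any of these markers in the BEX and TCEAL differences was not tested.

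The genes whose arrays most resembled those of BEX1 were not BEX or TCEAL genes. Likeness was taken as the root mean square difference from BEX1 over the 6 arrays, after each gene's log2 values were set against its own control mean, among 13719 other genes. PRSS12, which codes for a serine protease, was nearest (0.19), followed by the cancer-testis gene MAGEA12 (0.29), the protocadherin gene PCDH10 (0.31), FAM133A (0.33) and the cancer-testis gene MAGEA6 (0.35). PRSS12 averaged 1346 ± 17.4 in PARK2 cells and 34.3 ± 3.33 in control cells, and PCDH10 852 ± 39.3 and 21.3 ± 8.38 (SD, n = 3 each). The probe sets of MAGEA12 and MAGEA6 are marked _x_at and may read other MAGEA genes. BEX2 stood at a distance of 2.16, at rank 200 among these genes. The arrays form 2 groups, so the measure follows mostly the size of the difference between the lines.

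**Figure D5:**
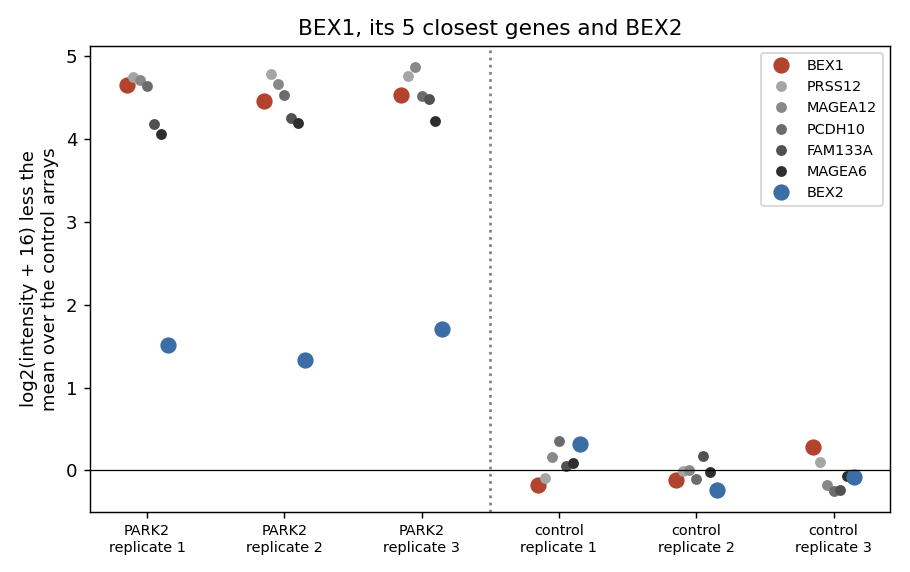
Values of BEX1, its 5 closest genes and BEX2 on each array, as log2(intensity + 16) less the gene's mean over the control arrays, with PARK2 arrays left of control arrays. BEX1 and the 5 genes lie more than 4 above 0 in all 3 PARK2 arrays, and BEX2 lies below them there.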

How the data were processed

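The deposited table holds a linear intensity for each probe set on each array; the submitters' processing notes name GCOS and MAS5, without role, version or scaling target, and the scaling of the arrays is unknown. Of 54675 probe sets, 62 were controls, 41091 had 1 gene symbol in GEO's platform annotation, 1801 several and 11721 none. Intensities were turned into log2(value + 16) without further normalization, and probe sets with 1 symbol and a mean at or above the 40th percentile were kept (26603, from 13720 genes). PARK2 and control arrays were compared over all of these by limma (version 3.58.1, R 4.3.3) with an intensity trend and Benjamini-Hochberg adjustment at 0.05 (13.7 prior and 4 residual degrees of freedom). Each list gene is represented by its brightest probe set, and from each list the up to 4 widest called differences, or the 2 smallest p, are named. The members and lists were chosen with earlier results of these data known. Correlations between arrays of a group ran from 0.984 to 0.988, so none was a duplicate. Deviations from the group means were correlated between arrays with the same replicate number (r of 0.401, 0.179 and 0.130 for replicates 1, 2 and 3). The labels state no pairing. Only replicate 1 stood apart, since PARK2 replicate 2 with control replicate 3 and PARK2 replicate 3 with control replicate 2 gave 0.162 and 0.115. The main fit was unpaired, and the replicate number as a block was an alternative. With the block the SE was 0.19 for BEX1 and 0.12 for TCEAL9, against 0.16 and 0.13 in the main fit. The number of arrays limits the precision. A promoter window of a related gene is not reported here.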

Additional observations from a re-analysis of the deposited data

How the results depend on the processing

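Over all tested probe sets, 2422 were higher and 2994 lower in PARK2 cells. The higher count was 3705 with quantile normalization, 3732 with trimmed mean scaling, 5905 with array weights (whose estimation stopped before convergence), 1461 with the mean of each gene's probe sets, 1433 at an adjusted p of 0.01 and 684 at a change of 2-fold or more. The lower count was 5352 with array weights, 1884 with the mean of each gene's probe sets, 1830 without probe sets marked _x_at or _s_at, 1733 at 0.01 and 544 at 2-fold or more. Leaving out 1 array gave 1529 to 3635 higher and 2166 to 3175 lower, with the extremes of the higher count without PARK2 replicate 3 and without control replicate 1. Fewer tested features lower the counts by gene (13720 tested) and without probe sets marked _x_at or _s_at (16775 tested). The stricter thresholds of 0.01 and 2-fold can only lower a count. The cause of the other changes was not tested. With the replicate block, 2569 were higher and 3202 lower, and no call of a BEX or TCEAL gene changed. Over the 20 alternatives that change the fit, the log2 differences ran from 3.78 to 4.92 for BEX1, from 1.13 to 1.72 for BEX2 and from 0.37 to 0.65 for TCEAL9. The members were chosen by this comparison, so calls that hold are no sign of stability. The ARMCX and GPRASP list had 5 to 6 genes higher and 0 lower, while the chromosome neighbours had 0 to 9 higher and 0 to 2 lower, the elongation list 0 to 8 and 2 to 7, the p75 list 1 to 2 and 2 to 5, neuronal markers 2 to 4 and 1 to 2, and glioma markers 0 to 3 and 3 to 4. The 9 neighbours came with array weights. Signal near the floor limits BEX4, BEX5 and NGFR, of which no direction can be given.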
